A study of Mus musculus with 10 samples.

Results

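Outer hair cells taken at P7, when they are not yet mature, were compared with converted hair cells (cHCs) taken at P33, across all genes. The comparison used 4 of the 10 bulk RNA-seq libraries of the series, 2 for OHCs (P7) and 2 for cHCs (P33), and each library was identified by the name its count table carries. The cHCs were mouse cochlear cells of the genotype Fgfr3iCreER+, Atoh1-HA+, alpha9 AChR-EGFP+ and Rosa26-CAG-loxP-stop-loxP-tdTomato+, in which tamoxifen given at P12 switched on Atoh1-HA and tdTomato in Deiters' and pillar cells, and they were handpicked for both tdTomato and EGFP. OHCs (P7) are labelled as prestin-YFP with 1 YFP allele, whereas the study's supplementary summary lists a tamoxifen-induced Prestin-CreERT2 and tdTomato, so the reporter that marked these cells is uncertain. The other 6 libraries, used here only to share the estimate of the spread and for context, were SCs (P26), OHCs (P22) and IHCs (P74), 2 of each. SCs (P26) are Deiters' and pillar cells without Atoh1-HA, marked with tdTomato through tamoxifen-induced Fgfr3-iCreER, and are labelled as day 26 and 27. OHCs (P22) of the prestin-YFP line are labelled as day 21 and 22. IHCs (P74), marked with a tdTomato reporter through Pvalb-Cre, are labelled as day 74 and 75. The study describes the 2 libraries of a group as biological duplicates, and the labels tie no library to an animal.

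Atoh1 is the basic helix-loop-helix transcription factor that starts hair cell formation, and its forced expression in supporting cells turns some of them into cells with hair cell features. Native OHCs amplify sound by changing length, which rests on the motor protein prestin (Slc26a5), and in the days after birth they acquire the calcium buffer oncomodulin (Ocm), potassium currents, efferent innervation and their share of mechanotransduction proteins. IHCs are the main sensory relay and release glutamate at ribbon synapses. OHCs at P7 are an early reference for the converted cells, but age and cell type change together in this comparison and cannot be told apart, and in bulk RNA fewer cells of a type and less RNA per cell cannot be told apart either.

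The 4 libraries held from 15016129 to 37338042 reads on genes, so 3 counts corresponded to between 0.0803 and 0.2 CPM. Levels are given as CPM, counts relative to library size scaled with TMM factors, always in the order OHC (P7) replicates 15 and 14, then cHC replicates 13 and 16, and they compare libraries for a gene, not genes with each other. Duplicates differed by a median of 0.63 on the log2 scale in OHCs (P7) and 0.74 in cHCs, over genes with a mean of at least 10 CPM. Reads that fell on no gene were 30.4% and 31.8% in OHCs (P7) but 39.6% and 41.8% in cHCs. The cHC library 16 stood apart in sex-linked genes: Xist, the RNA that silences an X chromosome, was at 1950, 1740 and 1530 CPM in the other 3 libraries and 2.87 in this one, while the Y-linked Eif2s3y was at 0.134, 0 and 0.0851 against 50.9 CPM. The effect of these differences on the calls was not tested beyond leaving out each library.

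Of 16891 genes tested, 58 (0.343%) differed between OHCs (P7) and cHCs by edgeR's quasi-likelihood test at a Benjamini-Hochberg FDR under 0.05. Of these, 37 (0.219%) were higher in OHCs (P7) and 21 (0.124%) were lower. Genes that native OHCs use, such as Ocm, Slc26a5, Strip2 (listed as Fam40b) and the large-conductance potassium channel gene Kcnma1, were among the 37, and the 21 included Pax2, Igll1, Rph3a and the Id1 repressor of basic helix-loop-helix factors. At an unadjusted p under 0.05, 736 genes were higher and 1148 lower. The calls leaned to the other side than this wider set, and the split turned with the tool: DESeq2 called 368 higher and 743 lower, and limma-voom 170 higher and 208 lower. The 2 groups' levels did not overlap for 45.1% of all tested genes. Leaving out 1 library kept 36 of the 58 calls without cHC 13, 26 without cHC 16, 26 without OHC (P7) 15 and 24 without OHC (P7) 14. In each of these 4 fits 13 genes kept their call, among them AI593442, Strip2, Ocm, Lmod3, Slc26a5, Kcnma1, Homer2, Crip3, Gpx2 and 6330503K22Rik.

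**Figure D1:**
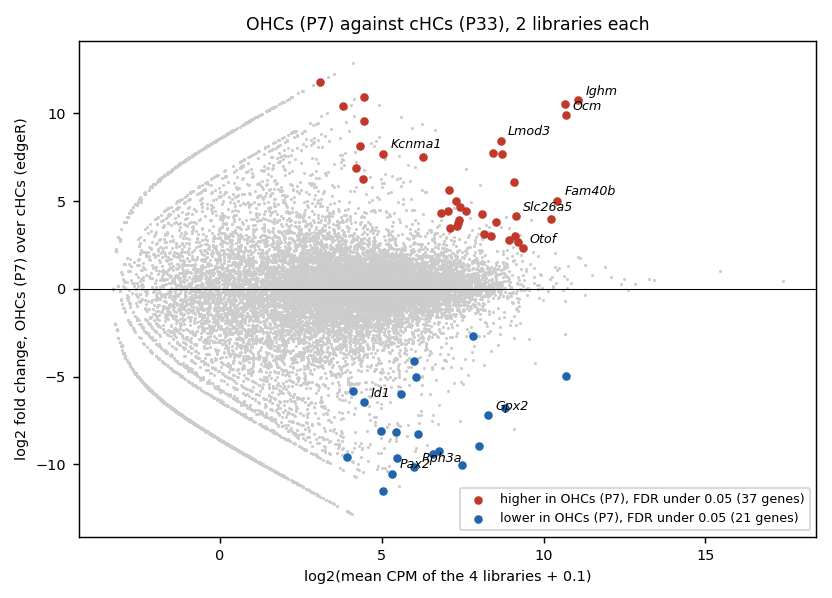
The log2 fold change of each of the 16891 tested genes (vertical axis, OHCs (P7) over cHCs, edgeR) against log2 of the mean CPM of the 4 libraries plus 0.1 (horizontal axis). Red points are the 37 genes higher in OHCs (P7), blue points the 21 lower, and grey points the other genes, whose fold changes spread widest at low mean CPM.

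The genes with the smallest p values had high levels in OHCs (P7) and low levels in cHCs. AI593442 was at 3260 and 3270 CPM in OHCs (P7) and 2.85 and 1.63 CPM in cHCs (log2 fold change 10.51 ± 0.66 SE, edgeR FDR 9.63e-05). Ocm, the OHC calcium buffer, was at 3400, 3160, 4.98 and 1.91 CPM (9.90 ± 0.82, edgeR FDR 0.000631). Both genes were at the low level of SCs in the cHCs: SC libraries held 2.0 and 1.89 CPM of AI593442 and 2.71 and 3.16 CPM of Ocm. Strip2, a protein of the striatin-interacting phosphatase complex, was at 2720, 2580, 76.8 and 86.8 CPM (5.02 ± 0.41, edgeR FDR 0.000631). Unlike Ocm, Strip2 was in both cHC libraries above the 1.82 and 1.7 CPM of SCs. Ocm lies at chr5:144780673-144787539 on the minus strand, Strip2 at chr6:29867013-29909681 on the plus strand and AI593442 at chr9:52481149-52487534 on the minus strand (mm9).

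Slc26a5, which encodes prestin, was at 1060 and 1090 CPM in OHCs (P7) and 97.6 and 23.4 CPM in cHCs (4.15 ± 0.65, edgeR FDR 0.0281). The cHC libraries differed from each other more than the OHC libraries did, yet both were far below OHCs (P7) and above the 0.755 and 0.531 CPM of SCs. Mature OHCs (P22) were at 3790 and 2750 CPM. The reporters described for OHCs of both ages are prestin-based, so these cells were picked for prestin expression, unlike the cHCs. Lmod3, which starts actin filaments in muscle, was at 770, 863, 4.04 and 0.686 CPM, and Sri, which encodes the calcium-binding protein sorcin, at 276, 313, 13.1 and 35.6 CPM (edgeR FDR 0.00833 and 0.0361). Slc26a5 lost its call in the fit of the 4 libraries alone (edgeR FDR 0.0850), and Sri without cHC 13 (0.137), OHC (P7) 15 (0.0700) or OHC (P7) 14 (0.119).

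Over the list of 20 OHC marker genes, 14 had a positive log2 fold change and 6 a negative one. The median was 3.10 against -0.09 for all genes tested. Of the 20, 5 were called higher and none lower, against 0.219% and 0.124% of all genes. The groups did not overlap for 14 of 20 members that were higher in OHCs (P7), 70.0% against 21.3% of all genes. The list was chosen with earlier results of these data known, and it includes Slc26a5, by which the OHCs were picked. These shares therefore describe the list and do not test it. Summed over the list, the level was 13100 and 12820 CPM in OHCs (P7) and 1095 and 1236 CPM in cHCs, an 11.1-fold ratio of the means, and 23520 and 21100 CPM in OHCs (P22). Members that did not pass the test included Kcnn2, the calcium-activated potassium channel of the efferent synapse, at 117, 127, 5.23 and 10.5 CPM (edgeR FDR 0.0717), Tmc1, a subunit of the mechanotransduction channel, at 403, 399, 46.2 and 1.91 CPM (FDR 0.185), and Ikzf2, a transcription factor of OHC maturation, at 463, 482, 62.8 and 22.6 CPM (FDR 0.185). Calb1, a calcium buffer, was at 2200, 2140, 175 and 94.9 CPM (FDR 0.304), and was at only 0.529 and 23.9 CPM in OHCs (P22). Members with higher values in cHCs included Neurod6 at 0, 0.164, 7.66 and 119 CPM and Insm1 at 3.69, 0.846, 18.8 and 90.1 CPM, neither of which passed the test.

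**Figure D2:**
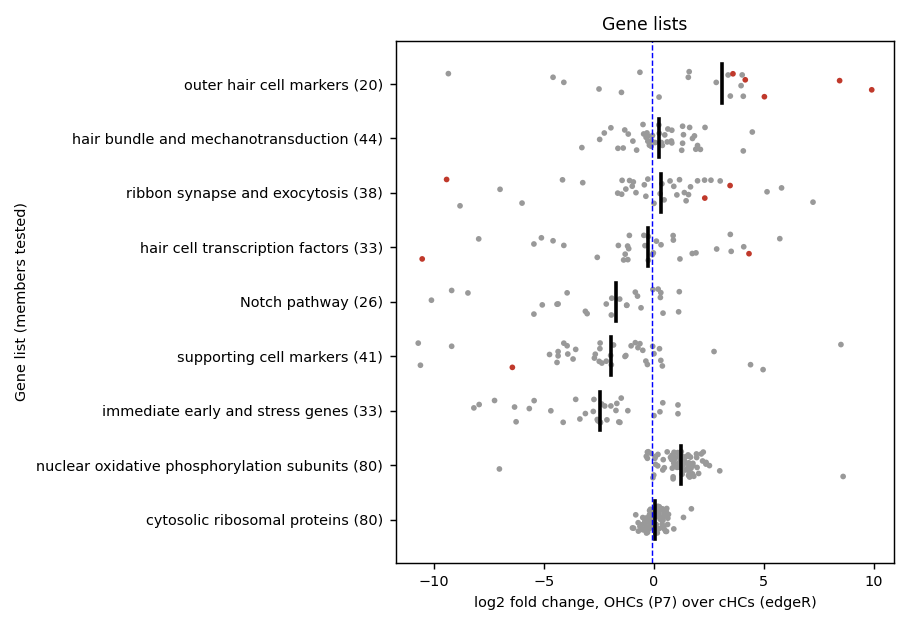
Log2 fold changes (horizontal axis, OHCs (P7) over cHCs) of the tested members of 9 gene lists, 1 point a gene and red where the edgeR FDR was under 0.05. Black bars are list medians, from 3.10 for outer hair cell markers to -2.44 for immediate early and stress genes, and the dashed line is the median of all genes, -0.09.

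Ion channel genes included 1 that rose in OHCs (P7). Kcnma1, the BK potassium channel, was at 106 and 25.7 CPM in OHCs (P7) and 0.255 and 0.356 CPM in cHCs (7.71 ± 1.02, edgeR FDR 0.0176). It was the 1 called member among the 31 ion channel genes tested (0.343% of all genes were called), and it missed the threshold with limma-voom (FDR 0.134) and in the edgeR fit of the 4 libraries alone (0.0665). Chrna9, whose promoter drives the EGFP used to pick the cHCs, was at 131, 160, 670 and 648 CPM (FDR 0.247), while Chrna10, the other subunit of the efferent acetylcholine receptor, was at 446, 486, 117 and 189 CPM (FDR 0.26). Neither passed the test, although the 2 groups did not overlap for either gene. Kcnj2, an inward rectifier, was at 0 counts in both OHC (P7) libraries and 18.8 and 22.2 CPM in cHCs (edgeR FDR 0.138).

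Ribbon synapse and exocytosis genes split as well, with 3 called among 38 tested (0.343% of all genes were called). Otof, the calcium sensor for hair cell exocytosis, was at 1040, 1150, 279 and 161 CPM (2.31 ± 0.41, edgeR FDR 0.0454). Snap91, a clathrin adaptor of vesicle recycling, was at 208, 293, 19.3 and 26.1 CPM (3.46 ± 0.50, FDR 0.0223). Syt13, a synaptotagmin that does not bind calcium, was at 0.201 and 0.327 CPM in OHCs (P7) and 121 and 259 CPM in cHCs (-9.43 ± 1.53, FDR 0.0331). Syt13 was also low in SCs, at 5.02 and 2.66 CPM, and in OHCs (P22), at 0.264 and 0.0421 CPM, so the high level was that of the cHCs among the libraries shown. Slc17a8, the vesicular glutamate transporter of IHCs, was at 75.5, 26.3, 1.87 and 0 CPM (FDR 0.153). Of 38 members tested, 20 were positive and 17 negative, with a median of 0.32, which was -0.09 without OHC (P7) 14 and 1.10 without cHC 16. The 3 calls depended on single libraries: Otof was at an edgeR FDR of 0.101 to 0.173 and Syt13 at 0.120 to 0.139 without cHC 16, OHC (P7) 15 or OHC (P7) 14, and Snap91 at 0.0704 to 0.112 without cHC 13, cHC 16 or OHC (P7) 14.

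The hair bundle and mechanotransduction list held no called gene among 44 tested, with 24 positive and 20 negative and a median of 0.23, which was -0.20 without OHC (P7) 14 and 0.43 without cHC 16. Myo6, a myosin of the stereocilia base, was at 2260, 2140, 2770 and 2860 CPM (FDR 0.738), a log2 fold change of -0.36 ± 0.31, and Myo7a at 407, 251, 405 and 504 CPM. Strc, which encodes stereocilin of the top connectors, was at 700, 674, 119 and 228 CPM, and Ptprq, a shaft-connector phosphatase, at 3850, 3290, 1360 and 1460 CPM (edgeR FDR 0.154 for both). Their groups did not overlap, as was so for 20 members higher in OHCs (P7) (45.5%, against 21.3% of all genes) and 10 lower (22.7%, against 23.8%). SC libraries were at 3.38 and 3.05 CPM of Ptprq and 0.533 and 0.637 CPM of Strc, below both cHC libraries.

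Among 33 tested hair cell transcription factor genes, Aff3 was called higher in OHCs (P7) and Pax2 lower (0.343% of all genes were called). Pax2, an early otic regulator, was at 0 and 0.0818 CPM, 3 counts in all, in OHCs (P7) and 46.2 and 114 CPM in cHCs (edgeR FDR 0.0493). The ratio of counts was 1520 (95% interval 520 to 7380, exact binomial, counting error only). Pax2 was at most 0.253 CPM in the 6 remaining libraries, SCs included. Its call was lost without any 1 of the 4 libraries (edgeR FDR 0.0701 to 0.270), and that of Aff3 without cHC 16, OHC (P7) 15 or OHC (P7) 14 (0.0665 to 0.135). Aff3, a nuclear protein of the super elongation family, was at 210, 221, 14.8 and 6.81 CPM (4.32 ± 0.66, FDR 0.0278), and SCs, at 94.0 and 59.8 CPM, lay above the cHCs. A list of 444 transcription factor genes was taken from the study's supplement and is only a part of those the study considered. Among these 444, Aff3, Pknox2 and Zfp827 were called higher and Id1 and Pax2 lower, with a median of -0.11.

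Atoh1 itself was at 2.15 and 6.44 CPM in OHCs (P7) and 364 and 1810 CPM in cHCs (-7.97 ± 1.32, edgeR FDR 0.0542). The cHC values include any reads of the Atoh1-HA transgene, which the counts do not separate from the endogenous gene. Pou4f3, a hair cell survival factor under Atoh1, was at 487, 543, 235 and 330 CPM (FDR 0.485), and Isl1 at 18.6, 48.9, 36.8 and 56.3 CPM (FDR 0.888). Gfi1, another factor of hair cell survival, was at 125, 91.8, 7.91 and 57.3 CPM (FDR 0.495). Exons of Gfi1 overlap those of a gene on the opposite strand, and the strand setting of the counting is not known. Reads of these overlapping genes therefore cannot be told apart. The Isl1 libraries overlapped between groups, whereas those of Pou4f3 and Gfi1 did not. Six2, at 913, 823, 66.2 and 36.6 CPM (FDR 0.122), and Zbtb20, at 292, 630, 3300 and 2200 CPM (FDR 0.087), lay on opposite sides, and SCs held 5230 and 4780 CPM of Zbtb20.

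Several of the other genes that were higher in OHCs (P7) have known roles. Homer2, a postsynaptic scaffold protein, was at 577, 803, 59.4 and 37.2 CPM, Sgip1, which acts in endocytosis, at 293, 237, 3.79 and 6.86 CPM, and Chst2, a sulfotransferase of sugar chains, at 913, 767, 6.04 and 2.06 CPM (edgeR FDR 0.0122, 0.0176 and 0.0176). Hsd17b7, an enzyme of cholesterol and steroid synthesis, was at 2100, 2420, 146 and 145 CPM, and Dnmt3a, which methylates DNA de novo, at 311, 352, 13.4 and 12.7 CPM. Dnmt3a was at 52.3 and 137 CPM in OHCs (P22), and its call was lost without any 1 of the 4 libraries (edgeR FDR 0.0516 to 0.0958). Without cHC 16 the edgeR FDR was 0.0619 for Hsd17b7, 0.0633 for Kalrn and 0.109 for Nf2, which also missed the threshold without OHC (P7) 15 (0.0535) or 14 (0.0994). Kalrn, an exchange factor for small GTPases, was at 895, 1250, 24 and 7.90 CPM, and Nf2, the gene of the tumour suppressor merlin, at 919, 1040, 162 and 79.0 CPM. Pla2g7, which breaks down platelet-activating factor, was at 740, 632, 3.02 and 3.25 CPM, with SCs at 84.5 and 43.9 CPM. Exons of Sgip1, Pla2g7 and Dnmt3a overlap those of a gene on the opposite strand, and without the strand setting of the counting their reads cannot be told apart. Crip3, a LIM domain protein, was at 25 and 8.32 CPM in OHCs (P7) and at 0 counts in both cHC libraries, at least 276-fold higher against a floor of 3 counts over the cHC pair. The call of Crip3 was lost in the fit of the 4 libraries alone (edgeR FDR 0.13).

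Ighm, the constant region of the immunoglobulin mu chain, was at 4080 and 4550 CPM in OHCs (P7) and 3.15 and 1.88 CPM in cHCs (10.75 ± 1.80, edgeR FDR 0.0361). In the 6 remaining libraries it was at most 18.6 CPM. The B cell receptor gene Cd79a had 0 counts in all 4 libraries. The 19 listed genes of macrophages and blood cells that the files held summed to 32.3 and 26.6 CPM in OHCs (P7) and 14.1 and 7.67 CPM in cHCs, with the macrophage gene C1qb at 15.6, 13.1, 0.0425 and 0.762 CPM (FDR 0.462). The part of blood or immune cells in the Ighm level was not tested. The other gene of the immunoglobulin family, Igll1, the surrogate light chain of pre-B cells, was at 0.134 and 0.491 CPM in OHCs (P7) and 237 and 472 CPM in cHCs (-10.04 ± 1.20, FDR 0.0198). Igll1 was at 0 in all 4 OHC (P22) and IHC (P74) libraries and at most 0.637 CPM in SCs. Without cHC 16 both calls were lost (edgeR FDR 0.0780 for Ighm and 0.0531 for Igll1).

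Some genes higher in cHCs were also present in SCs, and others were not. Id1 was at 0.201 and 0.737 CPM in OHCs (P7), 55.5 and 30.2 CPM in cHCs (-6.44 ± 1.01, edgeR FDR 0.0281) and 197 and 102 CPM in SCs. Cntn1, an axonal adhesion protein, was at 0.201, 0.382, 79.6 and 91.9 CPM, with 58.0 and 78.3 CPM in SCs. Rhou, a small GTPase, was at 0.604, 2.35, 160 and 31.4 CPM, with 468 and 340 CPM in SCs. The calls of all 3 genes were lost without OHC (P7) 15 (edgeR FDR 0.119 to 0.160) or 14 (0.0539 to 0.117). Of the 21 genes, 10 were at 10 CPM or more in both SC libraries and 9 were under 1 CPM in both.

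Rph3a, a Rab3 effector on synaptic vesicles, was at 0.0671 and 0.136 CPM in OHCs (P7), 81.9 and 173 CPM in cHCs (-10.16 ± 1.45, edgeR FDR 0.0223) and at most 0.186 CPM in SCs, and Sema7a, a membrane-anchored semaphorin, at 0.0671, 0.136, 67.5 and 107 CPM. Ecel1, a neuronal endopeptidase, was at 0.134, 0.546, 84.8 and 346 CPM. Lgi1, a secreted synaptic protein, had 1 count in the OHC (P7) libraries together and was at 43.1 and 89.0 CPM in cHCs, a ratio of 3700 (95% interval 664 to 146000, counting error only). 6330503K22Rik was at 131, 72.8, 2440 and 4020 CPM (-4.99 ± 0.66, FDR 0.0176). Without cHC 16 the edgeR FDR was 0.251 for Ecel1, 0.141 for Rph3a, 0.109 for Sema7a and 0.205 for Lgi1, and all 4 also missed the threshold without OHC (P7) 15 or 14 (0.0675 to 0.214), as did Lgi1 without cHC 13 (0.0662).

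Gpx2 and Utrn were lower in OHCs (P7) than in any of the other 8 libraries. Gpx2, a glutathione peroxidase, was at 0.806 and 7.56 CPM in OHCs (P7), 637 and 605 CPM in cHCs (-7.19 ± 0.98, edgeR FDR 0.0198), 332 and 436 CPM in OHCs (P22) and 151 and 244 CPM in SCs. Utrn, which encodes utrophin of the dystrophin complex, was at 65.8, 53.0, 385 and 393 CPM and at 317 and 300 CPM in OHCs (P22). Psat1, an enzyme of serine synthesis, followed another order, with 3.83, 12, 998 and 764 CPM in the compared libraries and 0.176 and 0 CPM in OHCs (P22). Gpx2 lost its call in the fit of the 4 libraries alone (edgeR FDR 0.0718). The call of Utrn was lost without any 1 of the 4 libraries (edgeR FDR 0.0620 to 0.229) and that of Psat1 without OHC (P7) 15 (0.0711). Over the libraries outside the comparison, the 37 genes higher in OHCs (P7) had a median of mean CPM of 350 in OHCs (P22) and 149 in IHCs (P74), and the 21 lower genes 0.37 and 6.6. These values are descriptive, and no difference between those cell types was tested.

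**Figure D3:**
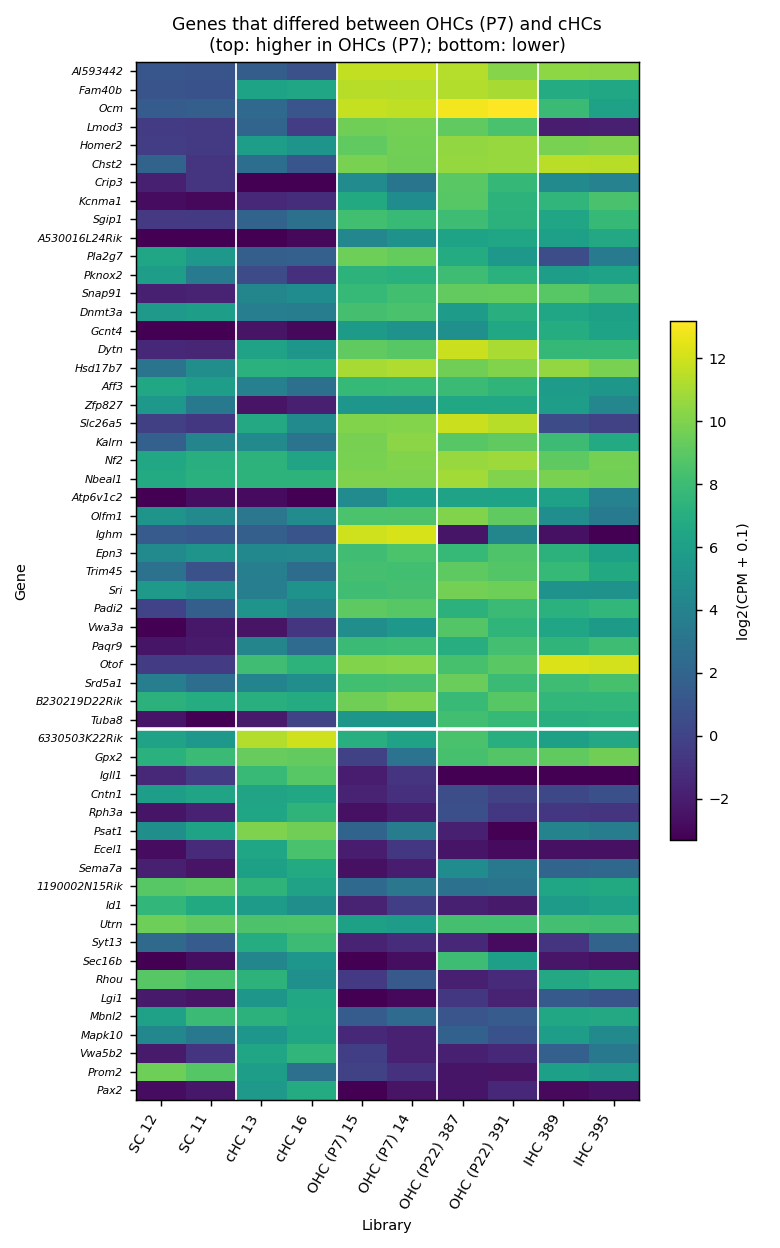
Levels of 56 of the 58 called genes as log2 of CPM plus 0.1 (colour) in all 10 libraries, named by cell type and replicate number, with 36 genes higher in OHCs (P7) above the thick white line and 20 lower ones below it. Ighm is brightest and Gpx2 darkest in OHCs (P7), and Pax2 and Igll1 are brightest in the 2 cHC libraries.

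Short stretches of promoter are shown for genes with a called difference because the E-box is the sequence that Atoh1 and other basic helix-loop-helix factors bind. Promoter windows of 300 bases (250 before the start and 50 after) from RefSeq on GRCm38.p6 were matched to 46 of the 58 genes and searched on both strands for the E-box CAGCTG, which reads the same on both strands. It stood in 25% of the 28 windows of genes lower in OHCs (P7), 8.82% of the 34 windows of genes higher and 16.3% of all 32851 windows. Counted by gene, it stood in a window of 7 of 18 lower genes (38.9%), 3 of 28 higher genes (10.7%) and 18.3% of all genes with a window. The E-box CAGATG stood in 17.9%, 8.82% and 17.2%, and GTTGCC, a core of the X-box that RFX factors bind, in 17.9%, 8.82% and 12.5%, in that order. The stretches below have 30 bases, run 5′ to 3′ in the direction of the gene, and carry the E-box in capitals.
Pax2 (chr19:44755676-44755705, plus strand): ggcgtgctgcgcCAGCTGcgctcgctcggg
Rph3a (chr5:121008569-121008598, minus strand): agttgggagagtCAGCTGagcctggaatgt
Sema7a (chr9:57939907-57939936, plus strand): ctgtcttctttgCAGCTGggttctcccggt
Igll1 (chr16:16864126-16864155, minus strand): ggttaagacaggCAGCTGtgagtgaaaaca
Homer2 (chr7:81693007-81693036, minus strand): tttgaataaggaCAGCTGgtactgattgat
The first 4 genes were at 46.2 CPM or more in both cHC libraries and under 1 CPM in both OHC (P7) libraries, while Homer2, shown with 1 of the 3 E-boxes of its window, was higher in OHCs (P7). A match is a description of the letters and not a bound site.

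Most SC marker genes had lower values in OHCs (P7) than in cHCs, and the size of this difference depended on single libraries. Of 41 tested, 33 had a negative and 7 a positive log2 fold change, with a median of -1.97. The single call was Id1 (0.343% of all genes were called). The median was -0.70 without cHC 13, with 16 positive and 24 negative, and -2.83 without OHC (P7) 14. Sox9, a supporting cell transcription factor, was at 2.62, 5.65, 126 and 16.0 CPM (FDR 0.237), and Fgfr3, whose regulatory sequence drives the iCreER of the cHCs, at 32.8, 103, 458 and 431 CPM (FDR 0.545). Sox2, at 0.134, 14.9, 30.9 and 6.93 CPM, and Gjb2, a gap junction connexin, at 14.1, 37.2, 83.4 and 1.73 CPM, overlapped between the groups. Rorb, 1 of the 7 positive members, was at 749, 1090, 225 and 53.2 CPM (2.73 ± 0.63, edgeR FDR 0.126). Summed over the 44 listed genes, the level was 1971 and 3164 CPM in OHCs (P7), 5064 and 2213 CPM in cHCs and 13870 and 18700 CPM in SCs. The sums of the compared groups overlapped, since cHC library 13 held more and cHC library 16 less than OHC (P7) library 14.

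Notch pathway genes had a median of -1.74 over 26 tested members, 20 of them negative and none called. The median was -3.29 without OHC (P7) 14 and -1.17 without OHC (P7) 15. At an unadjusted edgeR p under 0.05, 10 were lower and 0 higher, against 1148 lower and 736 higher of all 16891 genes tested. The effector Hey1 was at 3.89, 3.30, 60 and 50.8 CPM (FDR 0.186), Hes1 at 1.07, 0.0273, 12.7 and 9.75 CPM (FDR 0.298) and the ligand gene Jag2 at 14.2, 15.2, 97.1 and 157 CPM (FDR 0.307). Dll3, a ligand that inhibits Notch in the same cell, was at 0, 0.0818, 48.3 and 70.1 CPM (FDR 0.19). In SCs Hey1 was at 537 and 359 CPM, above the cHCs, and Dll3 at 5.91 and 0.186 CPM, below them. The groups did not overlap for 16 members that were lower, 61.5% against 23.8% of all genes.

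Immediate early and stress genes also had lower values in OHCs (P7) for 28 of 33 members, with a median of -2.44, -2.09 to -3.18 when 1 library was left out, and no call. Egr1 was at 77.5, 130, 500 and 579 CPM, Fos at 12.3, 18.1, 82.6 and 60.7 CPM and Klf6 at 1.28, 7.64, 111 and 46.1 CPM (edgeR FDR 0.423, 0.427 and 0.178). All 3 were as high or higher in the SC libraries, where Egr1 was at 911 and 2800 CPM. Hsph1, a heat shock protein, stood on the other side at 584, 546, 232 and 300 CPM.

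Nuclear genes of oxidative phosphorylation had higher values in OHCs (P7) for 72 of 80 tested subunits, with a median log2 fold change of 1.22 and no call. The sum over the list was 12080 and 11710 CPM in OHCs (P7) and 4588 and 4959 CPM in cHCs, a 2.49-fold ratio of the means. The sums of the 6 remaining libraries lay between 4943 and 6570 CPM, so OHCs (P7) were above every other library. Atp5b, the catalytic subunit of ATP synthase, was at 1930, 2290, 494 and 539 CPM (2.03 ± 0.55, edgeR FDR 0.195), and Cycs, cytochrome c, at 144, 127, 26.7 and 26 CPM (FDR 0.275). The groups did not overlap for 59 members higher in OHCs (P7), 73.8% against 21.3% of all genes. Under the other 12 analyses the list's median lay between 1.12 and 1.31.

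Cytosolic ribosomal protein genes differed far less between the groups, with 43 of 80 tested members positive, 37 negative and a median of 0.05. Their sum was 15360 and 14950 CPM in OHCs (P7) and 14230 and 15480 CPM in cHCs, so the groups overlapped. In OHCs (P22) the sums were 5650 and 6353 CPM.

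**Figure D4:**
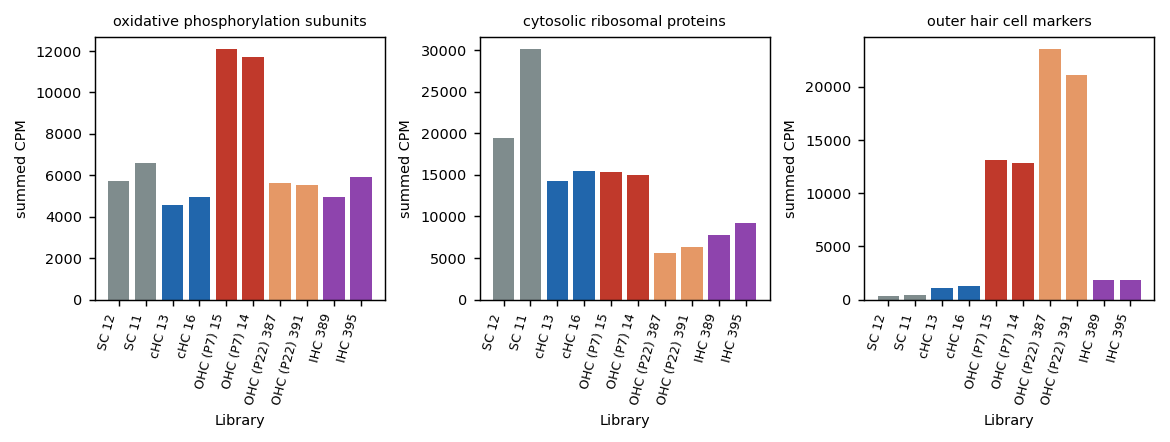
Summed CPM (vertical axes, starting at 0) of the genes of oxidative phosphorylation, of cytosolic ribosomal proteins and of the OHC markers in each of the 10 libraries, 1 bar a library, coloured by cell type. The OHC (P7) bars of oxidative phosphorylation, 12080 and 11710 CPM, are above all others, the ribosomal bars of OHCs (P7) and cHCs overlap, and the OHC marker bars of cHCs, 1095 and 1236 CPM, are far below those of both OHC ages.

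Calcium buffer and pump genes were evenly split over 30 tested members, 15 positive and 15 negative. Ocm and Sri were called (0.343% of all genes were called). Calm2, a calmodulin gene, was at 3690, 3230, 915 and 1090 CPM (1.79 ± 0.32, edgeR FDR 0.0532), and Ryr2, a calcium release channel, at 87.3, 89.1, 0.298 and 2.01 CPM (FDR 0.0738). Pvalb, another EF-hand buffer, went the other way at 228, 204, 599 and 1230 CPM (FDR 0.177). Cdkn1c, a cell cycle inhibitor and the leading member of its list of 14, was at 0.134 and 0.464 CPM in OHCs (P7) and 196 and 275 CPM in cHCs (-9.53 ± 1.86, FDR 0.0692), with at most 3.56 CPM in the 6 remaining libraries. The groups of these genes did not overlap, but the 4 tests did not pass the threshold.

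The tectorial membrane is secreted mainly by cells beside the hair cells, and several of its genes had higher values in OHCs (P7). Tecta, which encodes alpha-tectorin, was at 47.9, 193, 0.0425 and 0.356 CPM (FDR 0.0779) and Tectb, beta-tectorin, at 624, 1610, 36.2 and 1.07 CPM (FDR 0.103). Of 17 tested, 12 were positive and none was called, and the list's median of 1.69 was 0.72 without OHC (P7) 15 and 3.19 without cHC 13. Listed markers of other cochlear cells varied between the OHC (P7) libraries as well. Prox1, from the SC list, was at 0.0671 CPM in library 15 and 95.7 CPM in library 14. Col1a2, a fibroblast collagen, was at 223 and 0 CPM in the same order. Prox1 did not single out SCs, whose libraries held 14.7 and 53.7 CPM, less than the 247 and 293 CPM of the cHC libraries. OHC (P7) library 14 also exceeded both SC libraries. The 23 listed genes of the greater epithelial ridge and other epithelium summed to 3530 and 4557 CPM in OHCs (P7) and 3460 and 1375 CPM in cHCs, and the 26 of mesenchyme, bone and vessels to 498 and 235 CPM and 430 and 30.5 CPM, with no member of either list called. The part of such cells in the differences above was not tested. Spiral ganglion neuron markers summed to 445 and 550 CPM in OHCs (P7) and 267 and 402 CPM in cHCs, and glial markers to 84.4 and 50.8 CPM and 135 and 223 CPM, again with no call.

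Among 18 proliferation genes and 38 collagen and laminin genes tested no member was called, with medians of -0.86 and 1.64. Leaving out single libraries turned the sign of both: proliferation genes were at 0.06 without cHC 16 and -2.06 without OHC (P7) 14, and collagen and laminin genes at -0.48 without OHC (P7) 15 and 4.02 without cHC 16. Neuronal cytoskeleton and outgrowth genes had a median of -0.61 over 35 tested members, which was -1.60 without OHC (P7) 15 and -0.12 without cHC 16, and Cntn1 was called lower. Stmn1, a microtubule regulator, was at 1.95, 26.4, 244 and 219 CPM (FDR 0.225) and Nefl, a neurofilament gene, at 104, 67, 0.511 and 0.0254 CPM (FDR 0.0692), so its members pointed both ways. The list of 10 tested IHC markers held Otof as its 1 called member (0.343% of all genes were called). The median of this list was 1.15, which was 0.61 without cHC 16 and 1.88 without cHC 13. Tbx2, the IHC fate factor, was at 4.30, 13.9, 0.0425 and 0.279 CPM (FDR 0.13) in these libraries, and at 272 and 198 CPM in IHCs.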

How the data were processed

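Total RNA of handpicked cells was amplified by single primer isothermal amplification. The authors mapped paired-end reads to mm9 with STAR and BWA and deposited raw HTSeq counts per gene. The annotation release and strand setting are not given in the sources used here. For 4 of the 10 records the attached table carried another sample's title, so tables were assigned by the title they carry, checked against the study's CPM table. Differential expression was tested with edgeR 4.0.16 (R 4.3.3): TMM factors, filterByExpr by cell type, a quasi-likelihood fit of all 10 libraries (common dispersion 1.12) and the Benjamini-Hochberg method. The standard error is the log2 fold change divided by the square root of F. The members and gene lists were chosen with earlier results of these data known. Named genes were the 15 smallest p values in each direction among called genes, called and most abundant list members, set hair cell and SC genes, called transcription factor genes and sex-linked genes. Further list members and called genes were named after their values were seen.

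Gene coordinates came from GENCODE on mm9. The alternatives were DESeq2 1.42.0, limma 3.58.1 with voom, upper-quartile factors, no filter, at least 10 counts in each of the 4 libraries, the 4 libraries alone, the form of the library titles as a block over 6 libraries and each library left out, with 6 libraries without the block added after seeing the data. In simulated data of this comparison with 200 genes changed by 4 log2 units, edgeR recovered 15.2% of the 198 tested (6.25% of calls false), limma-voom 5.56% (8.33%) and DESeq2 43.4% (69.3%). Some results are not reported here.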

Additional observations from a re-analysis of the deposited data

How the results depend on the processing

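No called gene changed direction under any of the 11 first alternatives, and 8 were called in all of them: 6330503K22Rik, AI593442, Chst2, Fam40b, Lmod3, Ocm, Pla2g7 and Sgip1. The number of calls was less stable. Against 58 (37 higher in OHCs (P7), 21 lower), DESeq2 gave 1111 (368 and 743), limma-voom 378 (170 and 208), no filter 558 (214 and 344), at least 10 counts in each of the 4 libraries 39 (28 and 11) and the 4 libraries alone 65 (31 and 34). DESeq2's calls held 69.3% false ones in the simulated data, which were drawn with edgeR's dispersions. The false share of its 1111 calls here was not measured. Upper-quartile factors gave 57 (35 and 22). Leaving out 1 library gave from 26 to 67 calls, 20 to 47 higher and 6 to 29 lower: 67 without cHC 13, 52 without cHC 16 (23 higher), 31 without OHC (P7) 15 and 26 without OHC (P7) 14, where the lone library is assumed to vary like the other groups. The titles of the SC, cHC and OHC (P7) libraries come in 2 forms. Over all tested genes, deviations of libraries with the same form did not move together (r 0.034, 0.041 and -0.018). Such values over all genes cannot show a pairing that acts on some genes, which was not tested. With the title form as a replicate block over these 6 libraries there were 32 calls (11 and 21), and 23 (9 and 14) without the block. The block ended the calls of Slc26a5 (edgeR FDR 0.0822), Kcnma1 (0.141), Crip3 (0.277) and Gpx2 (0.0566), among others. So did the 6 libraries without the block (0.0993, 0.0993, 0.174 and 0.0762). Among named genes that were not called, leaving out 1 library moved the log2 fold change of Isl1 between -1.46 and 0.07 (without OHC (P7) 15), the log2 fold change of Sox2 between -7.22 and 0.13 (without cHC 13) and the log2 fold change of Gjb2 between -1.73 and 3.90 (without cHC 13), and limma-voom gave 1.66 for Gjb2. With 2 libraries a group, edgeR missed most changes of 4 log2 units in the simulated data, where it recovered 15.2%. The simulation was a single draw with edgeR's own dispersions and no other differences between groups. It therefore does not measure what was detectable in the real libraries. At 15016129 counts a gene under 0.2 CPM was at or under 3 counts.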
